A study of Homo sapiens with 6 samples.

Results

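Ribosome footprints of 10 genes of glycoprotein folding in the endoplasmic reticulum were described in WPMY-1, a line of immortalised myofibroblasts from the stroma of the human prostate. The genes, among 62492 features of the deposited table, were GANAB (ENSG00000089597), PRKCSH (ENSG00000130175), MOGS (ENSG00000115275), CANX (ENSG00000127022), CALR (ENSG00000179218), UGGT1 (ENSG00000136731), PDIA3 (ENSG00000167004), LMAN1 (ENSG00000074695), LMAN2 (ENSG00000169223) and MAN1B1 (ENSG00000177239). They were selected by Ensembl ID for their role, and GANAB and LMAN2 lead the set because it was chosen on results of these data, with the footprint difference between the groups known. That difference is therefore given as a description for all 10 genes, with no test of its own. The study compared 3 libraries with a control short hairpin RNA, whose genotype is labelled TRMT61A wildtype, with 3 libraries with a hairpin against TRMT61A, labelled TRMT61A knockdown. TRMT61A is the catalytic subunit of the enzyme that places 1-methyladenosine in tRNA. All libraries come from this single cell line, and the number of hairpins per group and the treatment or passage of the cells are not given in the labels. Nothing says that libraries of a group were separate cultures, so the spread between them may be technical. Footprints reflect the amount of an mRNA and the density of ribosomes on it together, and less mRNA and fewer ribosomes per mRNA are not told apart here. The table also has RNA columns for samples not described here, and these were not used.

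As background, most proteins that enter the endoplasmic reticulum receive a branched sugar chain that ends in glucose. Glucosidase I (MOGS) and glucosidase II (GANAB, the catalytic subunit, with PRKCSH, the regulatory subunit) trim the glucoses, and a chain left with a single glucose is held by the lectins calnexin (CANX, in the membrane) and calreticulin (CALR, in the lumen), which bring the disulfide isomerase PDIA3 to the folding protein. UGGT1 puts a glucose back on proteins that are still misfolded, and the mannosidase MAN1B1 trims mannose and so marks slow folders for degradation. LMAN1 and LMAN2 are mannose-binding lectins of the early secretory pathway, and LMAN1 carries folded cargo such as coagulation factors towards the Golgi apparatus. Stromal myofibroblasts secrete many matrix glycoproteins, which are clients of this pathway.

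The upstream sequences of 3 genes are shown. Footprints of GANAB were higher and those of LMAN2 lower with the TRMT61A hairpin, and CALR, whose difference did not pass the threshold used below, holds an element of the stress response in this compartment. Of the 10 genes, 8 were found by symbol in the RefSeq promoter table (GRCh38.p14), and the 250 bases before each listed start were searched on both strands. Capitals mark CCAAT boxes and, in CALR, an ER stress element, which is CCAAT, 9 bases of any kind and CCACG, and which contains a CCAAT box.
GANAB, chr11:62646614-62646863, minus strand: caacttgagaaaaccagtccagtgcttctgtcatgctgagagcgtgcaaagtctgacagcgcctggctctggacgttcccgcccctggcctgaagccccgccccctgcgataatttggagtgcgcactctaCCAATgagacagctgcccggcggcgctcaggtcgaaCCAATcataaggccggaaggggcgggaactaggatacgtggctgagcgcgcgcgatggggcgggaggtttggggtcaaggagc
LMAN2, chr5:177351669-177351918, minus strand: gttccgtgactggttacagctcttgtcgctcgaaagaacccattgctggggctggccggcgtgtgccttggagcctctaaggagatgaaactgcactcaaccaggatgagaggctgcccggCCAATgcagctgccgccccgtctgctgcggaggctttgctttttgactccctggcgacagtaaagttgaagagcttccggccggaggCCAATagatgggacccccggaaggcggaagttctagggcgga
CALR, chr19:12938359-12938608, plus strand: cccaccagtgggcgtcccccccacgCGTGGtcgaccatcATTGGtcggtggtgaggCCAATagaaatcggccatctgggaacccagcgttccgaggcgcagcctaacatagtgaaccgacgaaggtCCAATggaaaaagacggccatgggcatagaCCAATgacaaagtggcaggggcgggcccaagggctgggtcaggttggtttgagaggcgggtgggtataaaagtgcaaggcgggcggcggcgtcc

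A CCAAT box was found before at least 1 listed start of 6 of the 8 genes, against 37.0% of all 27305 genes in the table. Genes with more listed starts had more sequence searched, and these shares were not matched for that. CANX had 4 listed starts and PRKCSH 3, and the table held 35116 starts for its 27305 genes. The PRKCSH boxes all lay before 1 of its 3 starts. GANAB and LMAN2 each held 2 CCAAT boxes, and any link of these boxes to the footprints was not tested. The ER stress element, to which factors of the unfolded protein response bind, was found in CALR and CANX. Both are among the 25 genes of the whole table (0.0916%) with a match. The genes were chosen for their role in this compartment, so nothing is read from that share. In CANX the element lies before some, not all, of its 4 listed starts. In CALR the element lies on the reverse strand, at chr19:12938384-12938402. Fitted CANX and CALR differences had opposite signs, neither past the threshold, and any link to the element was not tested. The CANX site is shown for comparison.
CANX, chr5:179698778-179698796, plus strand: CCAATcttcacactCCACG

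Neither ER stress element II (ATTGG, any base and CCACG, in 0.0659% of genes) nor the unfolded protein response element TGACGTGG (0.780% of genes) was found in these windows of the 8 genes. Such matches describe letters only, and nothing about binding was measured.

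Control libraries held 6771455 to 8008896 counts and knockdown libraries 12704354 to 17752247. Summed over the 10 genes, footprints made up 0.188% ± 0.031 of a control library and 0.208% ± 0.005 of a knockdown library (SD, n = 3 each), and the ranges overlapped. All 10 passed the filter on low counts, and each had at least 243 counts in every library, where counting error alone is 6.42%. Levels below are CPM, each library's counts taken relative to its TMM-scaled total, which sets the typical gene equal between libraries. Levels are not ordered between genes, since no coding lengths were used. The level of TRMT61A itself, markers of stromal cells and other pathway genes were not analysed here, because the table gives IDs without names.

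In the quasi-likelihood fit of edgeR over all 11653 tested features, GANAB was the single gene of the 10 past the adjusted threshold of 0.05 in the higher direction, where 1.48% of all features were called higher. LMAN1 and LMAN2 were past it in the lower direction, where 1.64% were called lower. Because the same contrast was known when the genes were chosen, nothing is read from these 3 of 10. The median log2 fold change, knockdown over control, was 0.28 over the 10 genes and -0.0047 over all tested features. In 5 of the 10 genes all knockdown libraries lay above all control libraries, against 12.2% of all features, and in 3 they lay below, against 12.7%. Nothing is read from these counts either, or from those on the other scaling below, since the same contrast was known. The shares over all features also include features with far lower counts than these genes. When libraries were scaled by their totals alone, the median of all features moved to -0.30, and 63 features were called higher and 334 lower in place of 173 and 191. Log2 fold changes of the 10 genes moved down with it, for example to 0.34 in MOGS, 0.50 in PRKCSH, 0.37 in CALR, 0.072 in MAN1B1, -0.33 in PDIA3 and -0.73 in CANX. On that scaling all knockdown libraries lay above all control libraries in 3 genes (GANAB, PRKCSH and CALR), against 6.09% of all features, since MOGS and UGGT1 then overlapped. They lay below in the same 3 genes as before (CANX, LMAN1 and LMAN2), against 19.1%.

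**Figure D1:**
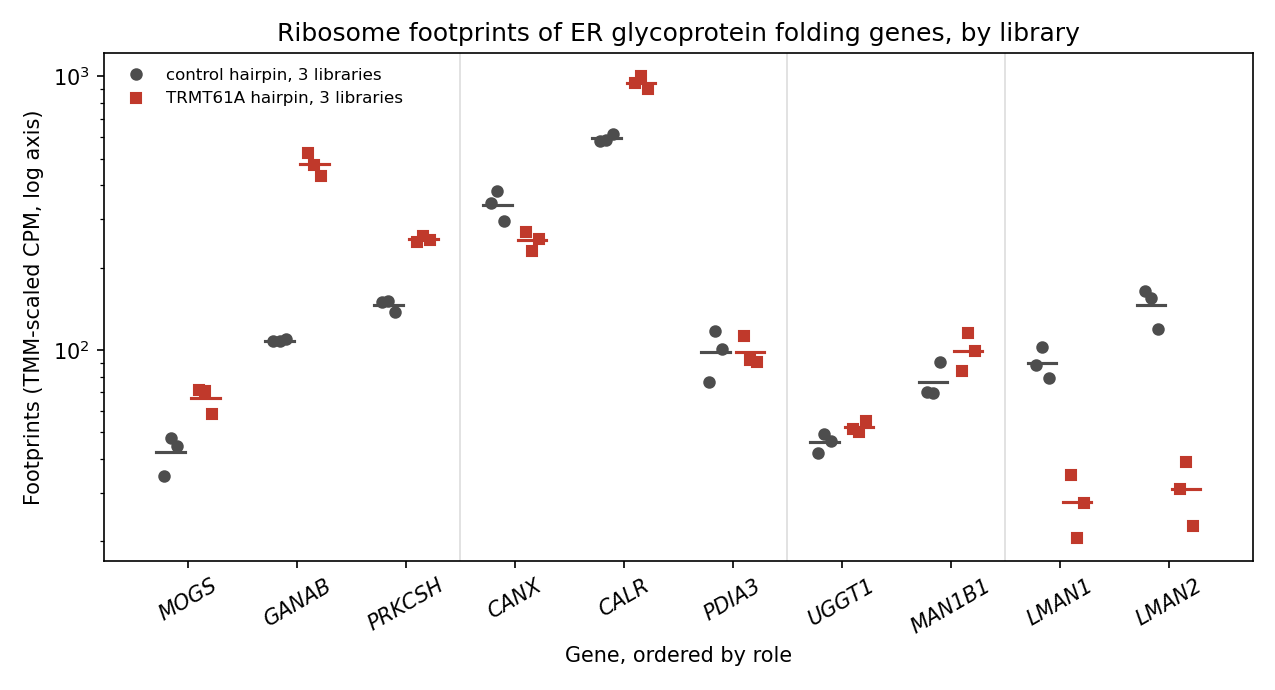
Footprint level of each gene in each library, as TMM-scaled CPM on a log axis, with control libraries as grey circles, TRMT61A hairpin libraries as red squares and a bar at each group mean. GANAB libraries sit at 108 to 109 CPM in control and 430 to 523 CPM with the hairpin, and LMAN2 libraries at 119 to 164 and 22.8 to 39.1 CPM.

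Among the glucose-trimming enzymes, GANAB differed by far more than its partner subunit. GANAB had 793, 880 and 965 counts in control libraries 1 to 3 and 7961, 5596 and 5312 counts in knockdown libraries 1 to 3. Scaled, these were 108, 108 and 109 CPM against 523, 474 and 430 CPM. The lowest knockdown library was 3.93 times as high as the highest control library. The means were 108 ± 1.0 and 476 ± 47 CPM (SD, n = 3 each). The fitted difference was 2.14 ± 0.21 (SE) on the log2 scale, or 4.40-fold. The control spread of 0.936% is smaller than the counting error of 3.55% at 793 counts, so it understates the error of the control level. A larger fitted rise was found in 164 of the 11653 tested features, among them features with low counts.

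PRKCSH, which holds the catalytic subunit in the endoplasmic reticulum, had 150, 151 and 137 CPM in the control libraries and 248, 260 and 253 CPM in the knockdown libraries. The groups did not overlap, and the knockdown libraries varied by 2.41% (coefficient of variation). The log2 fold change was 0.79 ± 0.20 (SE), a 1.73-fold difference that did not pass the threshold of the whole-table fit. MOGS, which acts first on the glucose chain, had 34.7, 47.6 and 44.6 CPM in control and 71.7, 71.1 and 58.4 CPM in knockdown. All 3 knockdown libraries were higher, at a log2 fold change of 0.67 ± 0.24 (SE) that did not pass either. For MOGS the separation of the groups was lost with library size alone, where the means were 47.6 ± 13.7 and 60.5 ± 3.3 CPM (SD, n = 3 each).

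The ratio of GANAB to PRKCSH counts within a library needs no scaling between libraries. It was 0.716, 0.715 and 0.796 in control libraries 1 to 3 and 2.11, 1.82 and 1.70 in knockdown libraries 1 to 3. The means were 0.742 ± 0.047 and 1.88 ± 0.21 (SD, n = 3 each), so the footprints of these subunits of a single enzyme were in a different proportion in the groups. The ratio itself is not a proportion of subunits, because the coding lengths differ.

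Of the folding lectins, CALR was higher and CANX lower in the knockdown libraries, neither past the threshold. CALR had 581, 585 and 617 CPM in control and 941, 1001 and 895 CPM in knockdown, a log2 fold change of 0.67 ± 0.21 (SE). CANX had 343, 380 and 297 CPM in control and 269, 230 and 255 CPM in knockdown, a log2 fold change of -0.43 ± 0.21 (SE). The groups did not overlap in either gene, but for CANX the lowest control library, at 297 CPM, lay close to the highest knockdown library. PDIA3, the isomerase that both lectins recruit, had 76.2, 118 and 101 CPM in control and 112, 92.0 and 90.4 CPM in knockdown. Its groups overlapped, its control libraries varied by 21.3%, the most of the 10 genes in control, and its log2 fold change was -0.0021 ± 0.24 (SE).

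Within a library, CANX counts were 0.590, 0.649 and 0.481 times those of CALR in control and 0.286, 0.230 and 0.285 times in knockdown. The means were 0.574 ± 0.086 and 0.267 ± 0.032 (SD, n = 3 each), a shift of -1.10 on the log2 scale. PDIA3 counts were 0.131, 0.202 and 0.164 times those of CALR in control and 0.119, 0.0919 and 0.101 times in knockdown. These ranges did not overlap, but the gap between 0.131 and 0.119 is small beside the control spread of 0.035 (SD, n = 3).

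**Figure D2:**
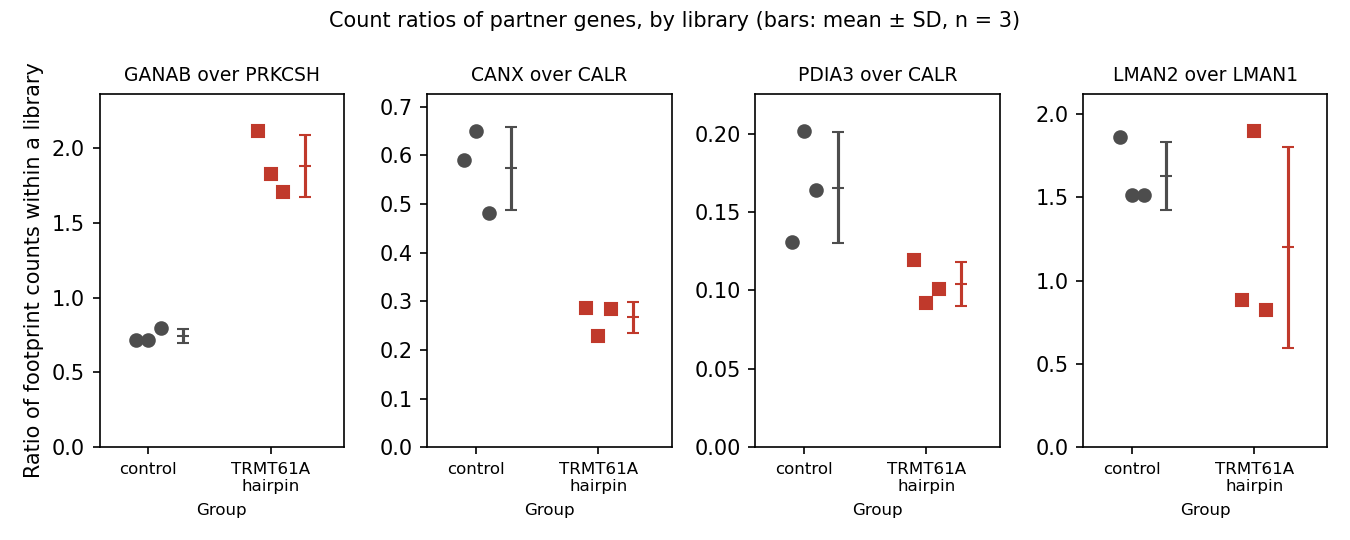
Ratio of the footprint counts of 2 partner genes within each library, on linear axes that start at 0, with control libraries as grey circles, TRMT61A hairpin libraries as red squares and bars for mean ± SD (n = 3 each). The groups are apart for GANAB over PRKCSH (0.742 against 1.88) and CANX over CALR (0.574 against 0.267). They are also apart, by a small gap, for PDIA3 over CALR (0.166 against 0.104), and they overlap for LMAN2 over LMAN1.

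The genes of quality control had small fitted differences. UGGT1, the folding sensor, ran from 42.2 to 49.5 CPM in control and from 50.3 to 55.1 CPM in knockdown, a log2 fold change of 0.18 ± 0.22 (SE). Its groups did not overlap, but the gap was under 1 CPM and with library size alone the groups overlapped and the sign turned (-0.12). MAN1B1 ran from 69.4 to 90.4 CPM in control and from 84.0 to 115 CPM in knockdown, with overlap, at 0.37 ± 0.23 (SE). Neither passed the threshold of the whole-table fit.

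Both transport lectins were lower in the knockdown libraries and past the threshold. LMAN2 had 1213, 1264 and 1051 counts in control libraries 1 to 3 and 473, 461 and 281 counts in the knockdown libraries, despite the greater depth of the latter. Scaled, these were 164, 155 and 119 CPM against 31.1, 39.1 and 22.8 CPM. The lowest control library was 3.05 times as high as the highest knockdown library. The means were 146 ± 24 and 31.0 ± 8.2 CPM (SD, n = 3 each). The fitted difference was -2.24 ± 0.27 (SE) on the log2 scale, so control was 4.72-fold higher. A larger fitted fall was found in 189 of the tested features, among them features with low counts.

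LMAN1 had 88.3, 102 and 78.8 CPM in control and 35.1, 20.6 and 27.7 CPM in knockdown, again without overlap. The means were 89.9 ± 11.9 and 27.8 ± 7.3 CPM (SD, n = 3 each), and the fitted difference of -1.69 ± 0.26 (SE) on the log2 scale made control 3.23-fold higher. Its call was lost without control library 2 or knockdown library 2, at log2 fold changes of -1.59 and -1.52. Knockdown libraries varied by 26.1% for LMAN1 and 26.3% for LMAN2, more than for any of the other 8 genes, which ran from 2.41% to 15.7%. The lectins did not vary together among knockdown libraries, since library 2 was the lowest for LMAN1 and the highest for LMAN2. The ratio of LMAN2 to LMAN1 counts was 1.86, 1.51 and 1.51 in control and 0.886, 1.90 and 0.822 in knockdown. Knockdown library 2 lay above every control library and the other knockdown libraries below, so no common shift of this ratio was seen.

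**Figure D3:**
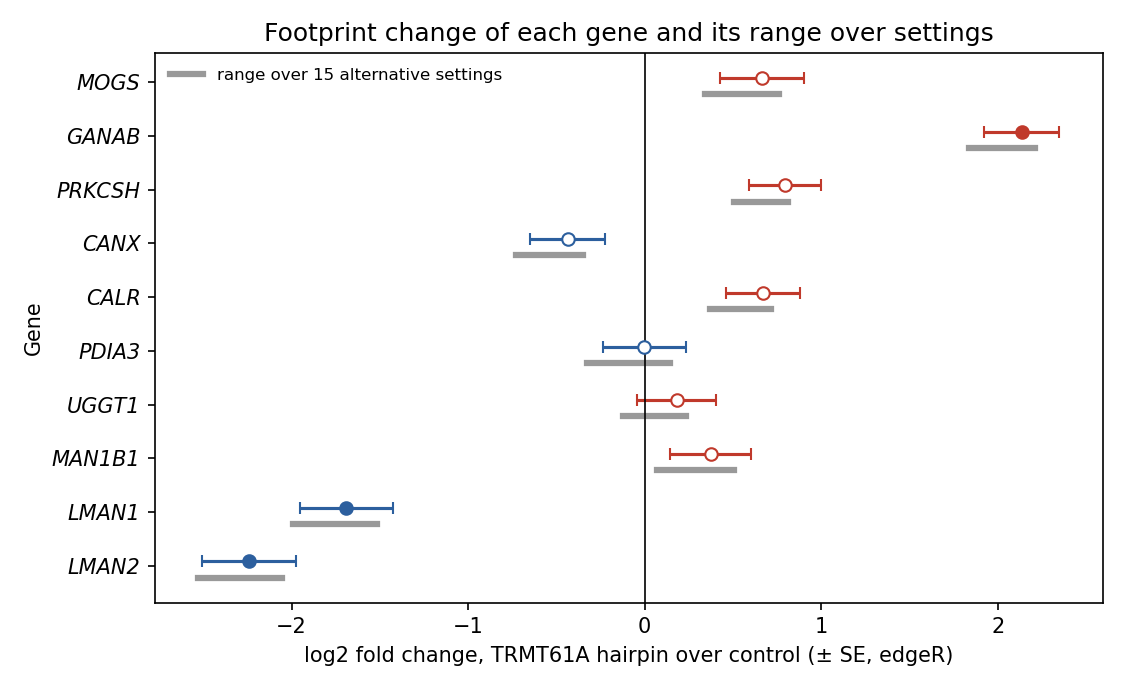
Fitted log2 fold change of each gene, TRMT61A hairpin over control, with its SE (points with bars, filled where past the adjusted threshold in edgeR, red above 0 and blue below) and its range over 15 other settings (grey bars). GANAB at 2.14, LMAN1 at -1.69 and LMAN2 at -2.24 are the filled points, and the grey bars of PDIA3 and UGGT1 cross 0.

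Some of these counts may hold reads of other genes. Neither the use of strand in counting nor the handling of reads that match more than 1 gene is stated. In the RefSeq table (GRCh38.p14), GANAB, MOGS and LMAN1 overlap no other gene. LMAN2 overlaps a pseudogene of RPS20, a ribosomal protein gene, CALR the microRNA gene MIR6515, and PDIA3 the protein-coding gene ELL3. Protein-coding genes also overlap PRKCSH (ODAD3, 148 bases), CANX (CBY3, 2379 bases) and MAN1B1 (LOC124902313, 3298 bases). PRKCSH, CANX and UGGT1 overlap a pseudogene each, and MAN1B1 a snoRNA. The part of such reads in the results was not tested.

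The features most like GANAB and LMAN2 over the 6 libraries were found among 5898 others with a mean of at least 10 CPM. For GANAB they were ENSG00000138085.17_8 (Pearson's r of log2 CPM 0.993) and ENSG00000135919.13_7 (0.993). For LMAN2 they were ENSG00000164885.13_5 (0.994) and ENSG00000270123.4_4 (0.993). These 6 libraries form 2 separate groups, so such values mostly reflect the gap between groups and are a description. Fitted log2 fold changes of the features like GANAB were 0.75 and 1.57, and those of the features like LMAN2 were -0.88 and -1.46, each smaller than that of the gene itself. What these IDs encode is not given in the files.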

How the data were processed

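Ribosome profiling was done in 6 WPMY-1 libraries. RNase I digestion, purification of monosomes, depletion of ribosomal RNA and size selection of footprints preceded sequencing, per the labels' protocols. The deposited values are raw read counts per Ensembl gene ID, and the values show no normalisation by the authors. Reads were handled with fastp and with Bowtie 1.3.1 on hg38, per the submitters' processing notes. How reads were counted, on which annotation and with or without strand is not stated there. PCR copies may be counted more than once, so counting errors are lower limits.

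The columns of the control group carry a vector's name and were matched to the control hairpin through assay and replicate number. A further 6 columns, of RNA, belong to samples not described here and were not used, so no translation efficiency was computed.

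Gene symbols come with the chosen set. Its members and the gene lists were chosen with earlier results of these data known. The lists by symbol and levels per coding length were left out, for want of tables that give names or lengths. Named are all 10 members, by rule, and the 2 features most like GANAB and the 2 most like LMAN2.

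Counts were filtered by filterByExpr, scaled by TMM and fitted over the whole table with edgeR 4.0.16 (R 4.3.3; quasi-likelihood test, two-sided, Benjamini-Hochberg threshold 0.05). The script was tested on simulated data. An SE is the log2 fold change divided by the square root of F, without its sign. Alternatives used DESeq2 1.42.0, limma 3.58.1 with voom, other scaling factors and filters, a block for the replicate number, and fits that each lacked 1 library.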

Additional observations from a re-analysis of the deposited data

How the results depend on the processing

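GANAB and LMAN2 kept direction and stayed past the threshold in all 15 alternatives, from 1.84 to 2.21 and from -2.53 to -2.05 on the log2 scale. The groups of both genes do not overlap, and both lead a set chosen on these data. Their direction was thus all but fixed in advance, and calls in refits of the same counts are no separate support. LMAN1 was called in 13 of 15, with adjusted p up to 0.0569 in edgeR. DESeq2 and limma voom called 5 members each, adding PRKCSH and CALR. These fits called 834 of 8178 and 443 of 11653 tested features, against 364 of 11653 in the main fit. PRKCSH also passed with at least 10 CPM in 3 libraries (602 of 6111 features called) and without the 50 most abundant features (356 of 11609). Leaving out 1 library at a time called 2 or 3 members.

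The number of tested features differed between settings. DESeq2 called 834 of 8178, no filter on low counts 735 of 20515 and at least 10 CPM in 3 libraries 602 of 6111, against 364 of 11653. Leaving out 1 library at a time left from 47 of 12672 to 171 of 11886. The replicate block left 208 of 11653, with the same 3 members called. Deviations of same-numbered libraries correlated at -0.0065, -0.015 and 0.039 for numbers 1 to 3. Number 3 was the best match in both directions, the others in neither. No clear pairing by number was seen, but with 3 libraries per group these values cannot exclude one.

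The sign of PDIA3 turned in DESeq2 (0.0094), limma voom (0.013), with RLE factors (0.0067), without a filter (0.015), with at least 10 CPM (0.011), with the replicate block (0.012) and without the 50 most abundant features (0.0016). It ran from -0.16 to 0.14 with 1 library left out, and UGGT1 came to -0.12 with library size alone. The causes were not tested. With 1 library left out, log2 shifts of the ratios ran from 1.25 to 1.40 (GANAB over PRKCSH), -1.22 to -0.99 (CANX over CALR), -0.81 to -0.50 (PDIA3 over CALR) and -0.93 to -0.32 (LMAN2 over LMAN1). Levels per coding length and the pathway lists were not run. LMAN1 had the lowest count of the 10 genes, 243 in knockdown library 2, close to 256 for MOGS in control library 1. Counting error at 243 counts is 6.4%, below the 26.1% by which LMAN1 varied between knockdown libraries.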
